A study of Homo sapiens with 50 samples.

Results

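Promoter-proximal pausing is the halt that RNA polymerase II (Pol II) makes shortly after it starts a gene, held by the factors DSIF and NELF until the kinase P-TEFb releases it into elongation. In most human genes the halt lies close to the start of the transcript. The entries described here lie farther in. They are the genes for which the authors' lists for DLD-1 cells place the pause site 200 bp to under 300 bp downstream of the gene's listed 5' end, counted along the gene's strand so that a distance of 0 puts the site on the first listed base. The lists held 345 such entries among 6481, or 5.32% (95% Wilson interval 4.80 to 5.90%), and 313 of the 345 could be named. The distance itself chose them and is therefore described without a test.

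DLD-1 is a human colorectal adenocarcinoma line, and per the labels the cells expressed OsTIR1, a plant F-box protein that directs the degradation of proteins carrying an auxin-inducible degron (AID) tag once auxin is added. The question, per the title, was the part SPT6 (a histone chaperone) plays in pause release through PAF1C, an elongation complex. The series comprised 50 chromatin immunoprecipitation libraries, 1 of them input, in 32 groups by antibody, line (parental, SPT6-AID, PAF1-AID, SPT6-AID/PAF1-AID, SPT6-AID/NELF-C-AID), treatment (vehicle or 500 µM auxin) and time (0, 2 or 6 h). None of the groups enters a value below, because the lists give 1 site per gene for the whole series and no value for any library. The sources used here give neither the caller nor the assay nor the depth behind the sites, so that no replicate error or depth can be stated. Wilson intervals below cover counting error between genes only, and genes are not independent replicates.

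The sequence at the sites was read where a promoter window of the RefSeq table (250 bases before to 50 bases from an annotated start, GRCh38.p14) covered them, which was so for 44 of the 345 sites. The 10 stretches that follow, each of 30 bases, 5' to 3' on the gene's strand, show what these sites shared. They are the first 10 of the 36 sites inside a promoter window of their own gene, ordered by membership of a gene list and then by symbol, passing over SLC35B1 because its 30 bases were not all covered. The listed pause base is the 15th letter, and the capital marks the base directly downstream of it.
ZNF516 (chr18:76495450-76495479, minus strand): tcctacagggcagacCatttccaggctggg
ABHD16A (chr6:31703095-31703124, minus strand): gaacgtggtacagtcCaaaccctttacggc
ACSL5 (chr10:112375145-112375174, plus strand): gtggctgagattcgaCacccactctgccat
ARHGAP31 (chr3:119294394-119294423, plus strand): ggcgggcagcagcgaCaggatgcttgtttt
ATXN2L (chr16:28822989-28823018, plus strand): tccgctccccggcgaCgcgcacgcgcgcca
B3GALNT1 (chr3:161104790-161104819, minus strand): gcggtgccgaggaagAggacgggaacggtg
BAHD1 (chr15:40441182-40441211, plus strand): cgcccccggggggttCcagccgccggattc
C4BPB (chr1:207089110-207089139, plus strand): gttacagaagttggaCtgtaaacattggca
CCDC90B (chr11:83286053-83286082, minus strand): cgaaaactacaattcCcagcattcctgtgg
CHN1 (chr2:175005090-175005119, minus strand): tgcgcccgacaataaCgcgtgaataacttt

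In 9 of these 10 stretches the capital is a cytosine, and B3GALNT1 is the exception. Over all 44 covered sites at 200 to under 300 bp, cytosine stood directly downstream of the listed base in 39, or 88.6% (76.0 to 95%). Among the covered sites at all other distances the share was 86.1% (1458 of 1694, 84.3 to 87.6%), and among those at 100 to under 200 bp it was 79.3% (73 of 92, 70.0 to 86.4%). The interval of the far sites thus spans the share of the remaining entries. At the other 10 positions from 5 bases upstream to 5 bases downstream, cytosine made up between 13.6% (2 bases downstream) and 54.5% (5 bases downstream) of the far sites. The 5 sites without the cytosine belonged to PXK, PDHB (the beta subunit of pyruvate dehydrogenase), B3GALNT1, ZNF888 and DUSP22.

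Guanine was frequent just upstream of the far sites, with 50% (22 of 44, 35.8 to 64.2%) at 2 bases upstream and 43.2% (19 of 44, 29.7 to 57.8%) at 1 base upstream. The other entries had 45.3% and 41.9% there. On the listed base itself, adenine took 38.6% of the far sites (17 of 44, 25.7 to 53.4%) and guanine 27.3% (12 of 44, 16.3 to 41.8%), whereas the other entries had 21.6% adenine and 48.9% guanine. At 5 bases downstream, cytosine reached 54.5% (24 of 44, 40.1 to 68.3%) against 29.5% in the others. It was 32.6% (30 of 92, 23.9 to 42.7%) for sites at 100 to under 200 bp. These contrasts were picked from 44 shares (4 bases at 11 positions) after their values were seen and were not tested. The 44 covered sites are not a random draw, since a site more than 200 bp from its listed start is covered only when another annotated start lies near it. Whether the listed position or the base after it corresponds to the end of the nascent RNA is not known from these sources.

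**Figure D1:**
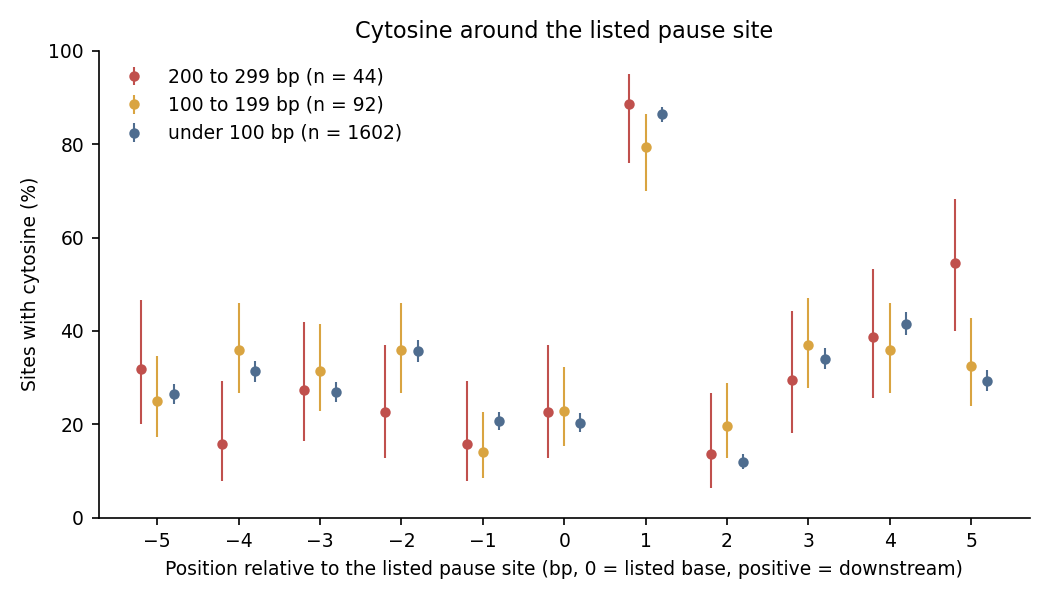
Share of pause sites with cytosine (%, y axis) at each position from 5 bp upstream to 5 bp downstream of the listed pause base (x axis), for sites at 200 to under 300 bp, 100 to under 200 bp and under 100 bp. Points are shares and bars 95% Wilson intervals. At 1 bp downstream the shares are 88.6%, 79.3% and 86.5%, and at the other positions shown none exceeds 54.5%.

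The listed 5' ends of the same genes were examined next. Pol II initiates preferentially at a pyrimidine followed by a purine, the core of the initiator element, with the purine as the first transcribed base. The bases at the listed 5' end could be read for 221 of the 345 entries. In 120 of them, or 54.3% (47.7 to 60.7%), the pair was CA with A as the first listed base, against 51.8% (2163 of 4174, 50.3 to 53.3%) among the other entries. Counting every pyrimidine-purine pair, 90.0% (85.4 to 93.3%) had it, against 86.4% (85.3 to 87.4%) of the others. The CG pair came next after CA in the far-site genes, with 32 of 221 (14.5%), followed by TA with 26 (11.8%) and TG with 21 (9.50%). CA was present in 57.9% (49.4 to 65.9%) of the readable far-site genes whose listed 5' end lay more than 10 bp from the RefSeq start, and in 50% (38.6 to 61.4%) of those within 10 bp.

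Promoter sequence around the nearest annotated start of the same gene was available for 254 of the 313 named genes. That start lay within 50 bp of the listed 5' end in 179 of the 254 (70.5%), against 78.6% of the others and 74.8% at 100 to under 200 bp. In the rest it lay farther off, so the sequence need not be the promoter of the listed 5' end. The GC content of this promoter sequence had a median of 67.3% (quartiles 60.8 and 73.0%), and the other entries had a median of 67.7% (61.3 and 73.7%). The number of CG pairs per 300 bases was 28 at the median against 29. The letters GGGCGG, the GC box bound by SP1, occurred on either strand in 75.2% of the far-site promoters (191 of 254, 69.5 to 80.1%), in 78.2% of the others and in 44.9% of all 34943 promoters of the table. CCAAT, bound by NF-Y, was found in 31.9% (26.5 to 37.9%) against 36.8% and 34.6%. CCGGAAG, the core of ETS factor sites, stood in 19.7% (15.3 to 25%), 19.3% and 10.2%.

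The less frequent letters were CATGCGC, part of the NRF1 site (7.09%, 8.28% and 4.40% in the same order), GATGGCG, the core of the YY1 site (5.51%, 8.45% and 4.20%), CACGTG, the E-box (8.66%, 10.4% and 7.23%), TGACGT, from the cyclic AMP response element (9.45%, 12.8% and 7.97%), and CTCGCGA (5.51%, 5.20% and 2.34%). All motifs were searched on both strands, and none is contained in another. For each of these motifs the interval of the far-site promoters included the share of the other entries. The TATA box letters TATAAA occurred in 10 of 254 far-site promoters (3.94%, 2.15 to 7.09%), in 4.13% of the others and in 11.6% of all promoters. Only PPIA, the gene for cyclophilin A and named after its value was seen, had them 40 to 15 bp before its listed 5' end, among 217 far-site genes readable there (0.461%, 0.0814 to 2.56%), against 1.29% of the others. PPIA had its pause site at 276 bp.

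Distances within the range were spread almost evenly. The median was 246 bp (quartiles 221 and 272), with 181 sites at 200 to under 250 bp and 164 at 250 to under 300 bp. Steps of 10 bp held between 23 sites (from 260 bp) and 42 sites (from 200 bp), the latter 1.25 times the mean of the other steps. Just below the range, 38 sites lay in the step from 190 bp, whereas 174 lay in the step from 100 bp. At the lower edge CREBL2 and MAP2, which encodes a microtubule-associated protein of neurons, stood at 200 bp, and BRPF3, C11orf58 and CYB5B at 201 bp. Outside it were ATP8B1, FBXL14, SRP9 and ZFP36L1 at 198 bp, so no gap separated the far sites from nearer ones.

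A single distance stood out from this even spread. At 230 bp there were 13 sites, 3.88 times the mean of 3.35 over the other 99 distances, and the next highest counts were 10 at 271 bp and 8 at 288 bp. The 10 bp step from 230 bp as a whole held 34 sites, within the range of the other steps. Of the 13 sites, 7 lay on the plus strand and 6 on the minus strand, and they came from 9 chromosomes. They included PER3, a circadian clock gene, TEAD4, a transcription factor of the Hippo pathway, BCL2L1, which encodes the survival protein BCL-XL, CDK5, the phosphatase gene DUSP22, and the ciliary genes MKS1 and CEP41, beside C4BPB, PCNX3 and ZSCAN9. The listed 5' end of these named genes lay anywhere from 378 bp upstream (DUSP22) to 697 bp downstream (CEP41) of the RefSeq start. The excess was found by inspection of the same distances that chose the entries and was not tested.

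**Figure D2:**
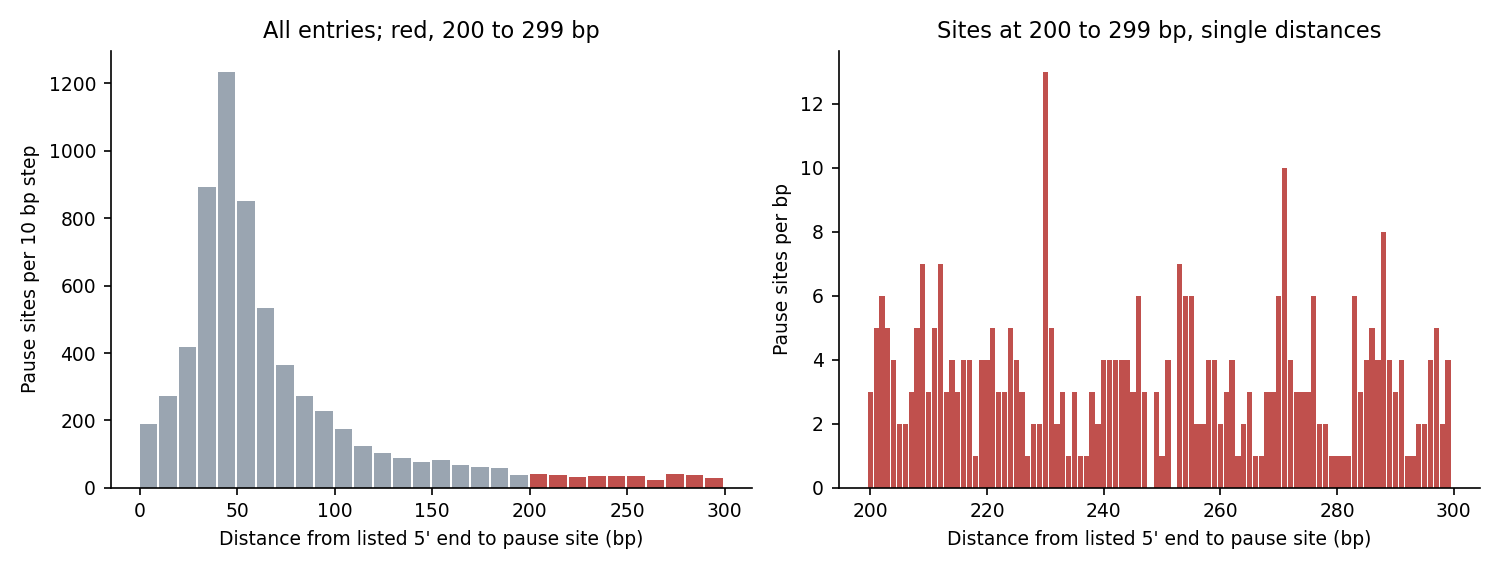
Left, number of pause sites per 10 bp step of distance from the listed 5' end (bp) for all 6481 entries, with the 345 at 200 to under 300 bp in red. Right, number of sites at each single distance from 200 to under 300 bp; the bar at 230 bp holds 13 sites and that at 271 bp 10.

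The distance depends on where the 5' end is placed, so each listed 5' end was set against the outermost RefSeq start for its gene. This comparison shares the listed end with the distance and is a description only. Both lay within 10 bp of each other in 94 of the 313 named far-site genes (30.0%, 25.2 to 35.3%), against 40.5% (39.2 to 41.8%) of the other named entries. In 49 (15.7%, 12 to 20.1%) the listed end lay more than 10 bp upstream of the RefSeq start, against 6.35% of the others, and in 24 (7.67%) more than 100 bp upstream, against 3.12%. In 88 (28.1%, 23.4 to 33.3%) it lay more than 300 bp downstream, against 19.8%. Named entries at 100 to under 200 bp lay between, with 37.1%, 9.24%, 3.59% and 24.0% for these shares in the same order. Measured from the RefSeq start, the far sites lay at a median of 283 bp (quartiles 230 and 687), and the sites of the other entries at 80 bp (48 and 189).

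In 65 far-site genes (20.8%) the listed 5' end and the RefSeq start were the same base, so that the distance was the same from either. Among them were ZEB1, a repressor of epithelial genes (251 bp), SLC7A11, the cystine-glutamate antiporter (289 bp), HOXA11 (281 bp), PPIA (276 bp) and KIF14, a mitotic kinesin (226 bp). At the other extreme, 13 far-site genes (4.15%, 2.44 to 6.98%) had the pause site upstream of the RefSeq start, against 3.36% of the other entries. Listed 5' ends far upstream were those of LIMD1 (868 bp), FHOD3 (861 bp), ME1, which encodes malic enzyme (763 bp), and ARHGAP35 (519 bp). Their pause sites lay 609, 621, 524 and 310 bp upstream of the RefSeq start.

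**Figure D3:**
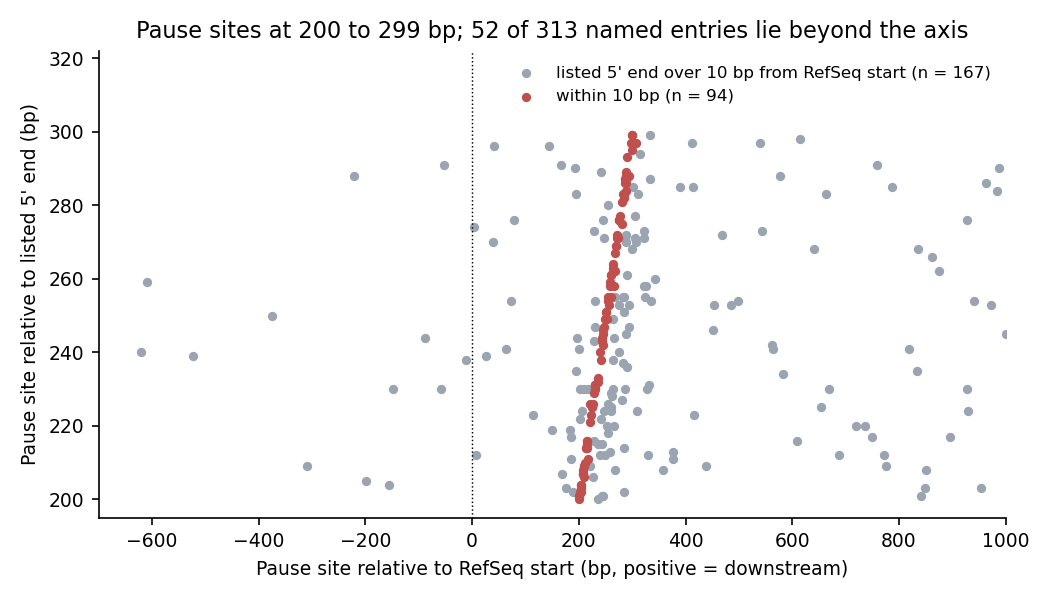
Position of each far pause site relative to the RefSeq start of its gene (bp, x axis) and relative to the listed 5' end (bp, y axis). Each point is a named gene; 261 of 313 fall within the axis, 94 of them with the listed 5' end within 10 bp of the RefSeq start (red), and 52 lie beyond it.

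A further 8 genes (2.56%, 1.30 to 4.96%) had a far site by the listed end but a site within 100 bp downstream of the RefSeq start. That place was held by 56.4% of the other entries, 64.9% of those under 100 bp and 4.36% of those at 100 to under 200 bp. The share thus depends on the distance that chose the entries. These 8 genes included YY1, a zinc finger transcription factor, at 41 bp, ARHGAP31, a GTPase-activating protein gene, at 25 bp, ATXN2L at 4 bp and USP18, the protease that removes ISG15, at 7 bp. MYOF, the gene for myoferlin, had its site 11 bp upstream of the RefSeq start. Whole promoter windows of 3 genes, chosen after their values were seen, are given because they show the RefSeq start and the site together. In ARHGAP31 and MYOF the capitals are, in order along the strand, the listed 5' end, then the RefSeq start and the base after the pause site (ARHGAP31), or the base after the pause site and then the RefSeq start (MYOF). In YY1 the listed 5' end lies just before the window, and the capitals are the RefSeq start and the base after the pause site.
ARHGAP31 (chr3:119294133-119294432, plus strand): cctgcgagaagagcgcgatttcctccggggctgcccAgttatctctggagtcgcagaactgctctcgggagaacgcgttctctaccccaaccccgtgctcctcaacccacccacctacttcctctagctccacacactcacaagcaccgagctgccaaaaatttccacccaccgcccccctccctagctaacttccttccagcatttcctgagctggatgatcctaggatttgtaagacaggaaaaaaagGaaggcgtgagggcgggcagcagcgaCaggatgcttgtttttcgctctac
MYOF (chr10:93482285-93482584, minus strand): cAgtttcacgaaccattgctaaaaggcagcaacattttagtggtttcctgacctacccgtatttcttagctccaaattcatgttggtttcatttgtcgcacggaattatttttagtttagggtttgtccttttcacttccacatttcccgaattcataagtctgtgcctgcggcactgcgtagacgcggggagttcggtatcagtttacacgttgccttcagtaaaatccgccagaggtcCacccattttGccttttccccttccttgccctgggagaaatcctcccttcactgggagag
YY1 (chr14:100238894-100239193, plus strand): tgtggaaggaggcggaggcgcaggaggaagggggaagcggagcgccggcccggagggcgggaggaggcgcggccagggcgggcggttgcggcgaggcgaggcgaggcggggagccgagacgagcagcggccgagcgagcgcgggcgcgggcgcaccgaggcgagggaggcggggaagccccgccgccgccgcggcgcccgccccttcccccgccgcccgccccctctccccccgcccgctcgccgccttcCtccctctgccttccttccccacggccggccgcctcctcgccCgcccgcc

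In ARHGAP31 the listed 5' end was 119294169, the RefSeq start lay 214 bp downstream of it and the pause site was at 119294408, a distance of 239 bp. MYOF had its listed 5' end at 93482583 and its site at 93482345, 238 bp downstream. YY1 had its listed 5' end at 100238889 and its site at 100239185, 296 bp downstream. The base after the site is a cytosine in all 3 genes, and the listed 5' ends of ARHGAP31 and MYOF both fall on the A of a CA pair. No exon or intron annotation was used here.

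Genes often have several annotated starts. The counts that follow use only the starts in the promoter table, which is not complete. Of 330 far-site entries on chromosomes with such starts, 11 (3.33%, 1.87 to 5.87%) had a start of the table on their strand 20 to 60 bp upstream of the pause site. Besides YY1 and ARHGAP31 these were CUL2, a cullin scaffold (start 48 bp before the site), ZMYM2 (31 bp), SLC35B1 (49 bp), ZBTB45 (34 bp), MFSD6 (54 bp), KAT14, a histone acetyltransferase gene (55 bp), and 3 unnamed entries. GPR37 is not among the 11, although its RefSeq gene start lay 39 bp before its site. Among the other entries 32.5% had such a start in the table. It was 37.7% for sites under 100 bp but 1.77% (15 of 849) for those at 100 to under 200 bp. This count shares the pause site with the distance that chose the entries, so the contrast is a description only. A start of the table, of any gene, lay within 10 bp of the listed 5' end for 110 of the 330 (33.3%, 28.5 to 38.6%). The share was 42.3% for the others and 39.8% (338 of 849) for entries at 100 to under 200 bp. Of the 313 named genes, 36 had the pause site inside a promoter window of their own gene, 29 of them upstream of that window's start and 7 downstream. This total includes named genes on chromosomes without starts in the table, which could not be counted among the 36.

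Neighbouring genes were counted around the far sites. Starts were those of the promoter table, and named genes on chromosomes without such starts stayed in the totals as having none. A start of another gene lay within 1000 bp of the site in 71 of 313 (22.7%, 18.4 to 27.6%), against 21.7% of the other named entries, and within 300 bp in 7.99% (5.47 to 11.5%), against 13.1%. The 300 bp share was 13.6% for sites under 100 bp and 10.1% for those at 100 to under 200 bp. It is counted from the pause site and so is not independent of the distance that chose the entries. For starts of other protein-coding genes within 1000 bp the shares were 4.15% and 3.96%. Another RefSeq gene overlapped the site in 50 genes (16%, 12.3 to 20.4%), against 12.7%.

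The far-site genes lay on 24 chromosomes, 173 on the plus strand (50.1%, 44.9 to 55.4%), against 51.9% of the others. Their median length was 39117 bp (binomial 95% interval 31837 to 45704), against 35304 bp. Genes under 6000 bp made up 7.25% (4.96 to 10.5%) and 6.00%, and those of 200000 bp or more 9.57% (33 genes, 6.89 to 13.1%) and 6.40%. The shortest were IRX3, a homeobox gene (3092 bp), SRSF8 (3672 bp), CHKB, a choline kinase gene (3877 bp), TUFM, the mitochondrial elongation factor Tu gene (3914 bp), and ARF6, a small GTPase of membrane traffic (3956 bp). The longest were PTPRK, a receptor tyrosine phosphatase gene (551789 bp), PRKCE, a protein kinase C gene (536837 bp), ITPR2, an inositol trisphosphate receptor gene (497842 bp), FHOD3 (483369 bp) and OXR1 (482325 bp).

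Far sites were found in genes of many functions. Of 29 gene lists, 20 held at least 1 far-site gene, 7 with entries in the authors' lists held none, and the fibroblast and blood marker lists had no entry at all. Together 47 of 811 list entries (5.80%) had a far site, against 5.38% of all named entries. Solute carriers, the membrane transporters of small molecules, had 12 of 120 (10.0%, 5.81 to 16.7%). They included SLC16A9 at 209 bp, the fatty acid transporters SLC27A2 at 226 bp and SLC27A4 at 277 bp, SLC25A24, a mitochondrial carrier, at 254 bp, and SLC7A11 at 289 bp. Zinc finger genes had 10 of 189 (5.29%, 2.90 to 9.46%), from ZNF620 at 201 bp to ZNF747 at 295 bp, and transmembrane protein genes 3 of 74 (4.05%).

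Among pause release and elongation genes 2 of 21 had a far site (9.52%, 2.65 to 28.9%). CDC73, a PAF1 complex subunit that the study also immunoprecipitated and the only far site among 5 listed study targets, had its site at 270 bp and 307 bp from the RefSeq start. AFF4, the scaffold of the super elongation complex (ENSG00000072364.13, chromosome 5, minus strand), had its listed 5' end at 132963529 and its site at 132963244, 285 bp downstream and 390 bp from the RefSeq start.

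Further lists held 1 or 2 far sites each. Their shares ran from 2.78% (0.492 to 14.2%) for cytosolic ribosomal proteins to 28.6% (8.22 to 64.1%) for the 7 HOX genes. Across all named entries the share was 5.38%. The translation initiation factors EIF3G (222 bp) and EIF3D (253 bp) made 2 of 34, the splicing factors SRSF4 (227 bp) and SRSF8 (286 bp) 2 of 19, and ATP5PO of the ATP synthase (216 bp) and NDUFB2 of complex I (263 bp) 2 of 34 oxidative phosphorylation genes. USP38 (207 bp) and USP18 (212 bp) made 2 of 27 ubiquitin-specific proteases, HOXA11 (281 bp) and HOXB6 (297 bp) 2 of 7 HOX genes. The ribosomal protein gene RPL23 (243 bp) was 1 of 36, MRPS10 of the mitochondrial ribosome (218 bp) 1 of 31, PSMA1 of the proteasome, at the upper edge of the range, 1 of 23, RAB26 (285 bp) 1 of 31, the RNA helicase gene DDX1 (271 bp) 1 of 25, KIF14 1 of 15 kinesins, AARS2, the mitochondrial alanyl-tRNA synthetase gene (255 bp), 1 of 17 synthetases, the replicative helicase subunit gene MCM2 (261 bp) 1 of 14 and SLC7A11 1 of 9 integrated stress response genes.

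The colon epithelium markers had 2 of 9 (22.2%, 6.32 to 54.7%), the intestinal transcription factor gene CDX2 (285 bp) and OCLN, which encodes occludin (297 bp). For PSMA1 the listed 5' end lay 123324 bp downstream of the outermost RefSeq start. The farthest such offset was that of ARHGEF3, a guanine nucleotide exchange factor gene (277319 bp), followed by MKLN1 (217803 bp), RASEF (156082 bp) and PKIB, a protein kinase A inhibitor gene (138484 bp). In RASEF and PKIB the listed 5' end was itself an annotated start. None of the mitosis (16 entries), immediate early (17), heat shock (11), cholesterol synthesis (10), glycolysis (7), Wnt target (12) and p53 target (11) genes had a far site, and even for the largest of these lists the Wilson upper limit was 18.4%, above the 5.38% of all named entries. The lists were chosen with earlier results known, and no list was tested for enrichment.

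**Figure D4:**
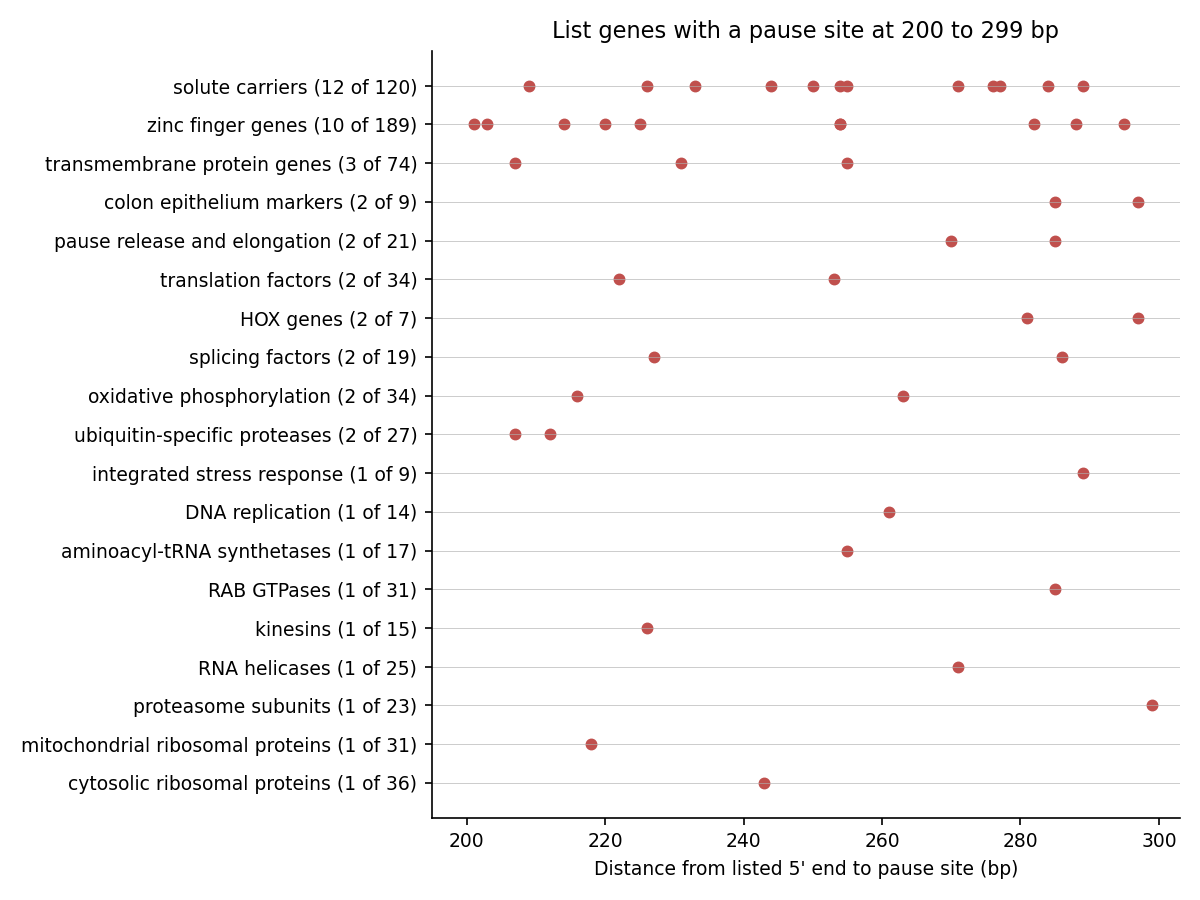
Distance from the listed 5' end to the pause site (bp, x axis) of each far-site gene in a gene list (rows; in brackets, far-site genes of all list entries). Each point is a gene; solute carriers (12) and zinc finger genes (10) span most of the range.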

How the data were processed

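Both files analysed are lists of hg38 coordinates in bp, deposited by the authors for the whole series: 6481 gene intervals and 1 pause site of 1 bp for each. The submitters' processing notes name the builds mm10 and hg38 and, without saying for what, deepTools 3.1.1, Bowtie2 2.2.6 and cutadapt 1.14. The pause caller is not stated there, and the 50 libraries' signal was not analysed here. Rows were joined by Ensembl identifier, and coordinates made 1-based. An entry took the symbol of the only RefSeq gene (GRCh38.p14, the same primary coordinates) whose 3' end lay within 50 bp of its own and which covered at least 50% of it; this named 5822 entries. Bases came from RefSeq promoter windows of 300 bases, read on the entry's strand; overlapping windows gave 0 conflicting bases.

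Shares carry 95% Wilson intervals and medians exact binomial ones. No test was made, because entries are not samples. The members, lists and named genes (list members, extremes of distance, length and offset, and the commonest distance) were chosen with earlier results of these data known, and the base and CA readouts after seeing the data. Some genes the rule names are not reported here. Code was tested on simulated data. The work used matplotlib 3.10.9, pandas 2.3.3, SciPy 1.17.1, NumPy 2.4.6 and Python 3.11.15.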

Additional observations from a re-analysis of the deposited data

How the results depend on the processing

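The share of entries with far sites was 10.2% for a range of 150 to under 300 bp, 2.53% for 250 to under 300 bp and 4.04% among genes whose listed and RefSeq starts were at most 10 bp apart. The plus strand share was 56.1% for 250 to under 300 bp. Listed and RefSeq starts coincided in 20.8% on the same base and in 53% within 50 bp, and the median distance from the RefSeq start was 251 bp for 150 to under 300 bp. Neighbouring starts were found in 7.99% within 300 bp and in 4.15% for coding genes. For starts at most 10 bp apart, CCAAT stood in 38.4% (28.1 to 49.8%) of far-site promoters. CCGGAAG stood in 26% (17.3 to 37.1%) and CTCGCGA in 2.74% (0.755 to 9.45%). Each of these wide intervals includes the share over all far-site promoters. List genes numbered 98 for 150 to under 300 bp, and the 13 sites at 230 bp split into 7 plus and 6 minus strand genes. These 15 of the 61 alternatives run on 21 results moved a share or median beyond its interval, or a count by over 1.5 times, and the other 46 did not. Some of the 15 were fixed, or nearly so, by the setting itself. These were the share of entries, the list count and the median distance from the RefSeq start over another range. Others were the nested start tolerances and neighbour limits, and the strand split of the 13 sites. The 4.04% (94 of 2325 named entries) restates the lower share of far-site genes with both starts within 10 bp. The tally is therefore no measure of robustness. For the other shifts the cause was not tested.

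The cytosine after the far sites ranged from 77.8% (windows on the opposite strand, and starts at most 10 bp apart) to 91.9% (windows on the own strand), in alternatives chosen after seeing the data. The interval was 45.3 to 93.7% for both settings with the lowest share and 78.7 to 97.2% for the highest. Each included the 88.6% of all covered far sites. No paired analysis was possible because the lists carry no value per sample. The lists hold no score, so what depth limits is unknown.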

Other observations

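Far pause sites were also looked at by genomic neighbourhood. The nearest entry of the authors' lists was itself a far-site gene for 25 of the 345 (7.25%, 95% Wilson interval 4.96 to 10.5%), against 5.12% (4.59 to 5.70%) for the other entries. Genes that are each other's nearest entry, such as BORCS5 and DUSP16, are counted in both directions. The counts are therefore not independent, which the intervals do not cover. Far-site neighbours included PXK (237 bp) and PDHB (215 bp), whose gene intervals point towards each other 1503 bp apart. Both lack the cytosine after the site. Gaps are given here between the nearest ends of the gene intervals, and in each pair named the pause sites lie farther apart. BORCS5 (253 bp) and DUSP16 (202 bp) lie 2049 bp apart, and ATXN2L (274 bp) and TUFM (224 bp) 5179 bp apart. The AP-1 family genes JDP2 (221 bp) and BATF (247 bp) lie 48345 bp apart. These pairs were picked after their values were seen.

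Far sites at 200 to under 250 bp and at 250 to under 300 bp were also set against each other, without a test. The median gene length was 44831 bp (binomial 95% interval 35102 to 54290) in the 181 nearer and 32865 bp (26078 to 41980) in the 164 farther ones. The plus strand held 44.8% (37.7 to 52.0%) of the nearer and 56.1% (48.4 to 63.5%) of the farther ones, and both pairs of intervals overlap. Where readable, cytosine followed the site in 86.4% (66.7 to 95.3%) of the nearer and 90.9% (72.2 to 97.5%) of the farther ones. The pair at the listed 5' end was CA in 57.9% (48.7 to 66.6%) and 50.5% (41.1 to 59.8%). These intervals overlap as well.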
